A study of Saccharomyces cerevisiae with 26 samples.

Results

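The genes of the yeast proteasome and their transcriptional activator RPN4 were followed through growth, sporulation, benomyl treatment and cold. The members were the genes whose symbols carry the proteasome names PRE, PUP, SCL1, RPN or RPT, each read from the probe set with the highest mean signal where several matched. This gave 34 genes on 39 probe sets, out of 5656 genes named by a probe set of a single gene. They comprised 14 subunits of the core particle (7 of the alpha ring and 7 of the beta ring), 10 subunits of the base, 8 subunits of the lid, the assembly chaperone RPN14 and RPN4. The 32 core, base and lid genes are called subunits here. All 34 members passed the filter on dim probe sets.

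The proteasome is the large protease that degrades proteins marked with ubiquitin. Its core particle is a stack of alpha and beta rings with the proteolytic sites inside, and the regulatory particle, made of a base and a lid, binds the substrate, removes its ubiquitin, unfolds it and feeds it into the core. In budding yeast the zinc finger protein Rpn4 activates most proteasome genes, and Rpn4 is itself a very short-lived substrate of the proteasome, so that the pair forms a feedback loop. RPN4 transcription is also known to respond to the stress factors Yap1, Pdr1, Pdr3 and Hsf1.

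The RNA of 13 groups was measured with 2 arrays per group (26 of the Affymetrix YG_S98 type), and the values are log2 signals. In the first set of 16 arrays, samples came from glucose medium (YPD), which is rich, from acetate pre-sporulation medium (YPA) and 4 h after sporulation was induced (SP4). At 4 h such cells were filtered and resuspended with benomyl (SB5 after 1 h, SB8 after 4 h), with the solvent dimethyl sulfoxide alone (DMSO; SD5 after 1 h, SD8 after 4 h) or with no addition (SF5 after 1 h). Benomyl is a benzimidazole that depolymerizes microtubules. It came from a 30 mg/ml stock in DMSO, and the stated final concentration was 0.4% for the benomyl medium and 0.4% for the DMSO medium. In the second set of 10 arrays, cells 4 h into sporulation (SR4) were filtered and moved to pre-chilled medium with DMSO at 10 °C (SC5 after 1 h, SC8 after 4 h) or resuspended with no stated addition or temperature (SR5 after 1 h, SR8 after 4 h). If the controls had no DMSO, which the labels do not state, cold and DMSO cannot be told apart in these comparisons. The labels give no strain or genotype, and for SP4 they do not name the sporulation medium. All groups other than YPD and YPA share overnight growth in acetate medium at 30 °C.

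The labels do not say that the 2 arrays of a group came from separate cultures, so p-values measure the spread between arrays, which may be technical. Fold changes are differences of group means on the log2 scale, given ± the standard error of the limma model (n = 2 arrays per group). Rose and fell are used where a gene's limma adjusted p was under 0.05 over all 7876 probe sets tested. The arrays measure each gene relative to the RNA of the whole culture, so a change in the share of cells expressing a gene and a change in RNA per cell cannot be told apart. The early meiosis genes IME1, IME2, HOP1 and DMC1 rose in SP4 over YPA (4 of 4, median log2 fold change 4.28). Among all probe sets tested 28.5% were called higher and 29.5% lower there. The arrays of SB5 stood apart from each other: they correlated at r = 0.942, against 0.963 for SR5 and 0.984 to 0.995 for the other groups. All 32 subunits were higher in replicate 1 of SB5 than in replicate 2 (median difference 0.36 on the log2 scale), while RPN4 was higher in replicate 2.

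RPN4 reached its highest level 1 h after benomyl. Its log2 signal was 11.26 and 11.86 in SB5, against 9.54 and 9.52 in SD5. Both benomyl arrays lay above every other array of the series. RPN4 rose by 2.03 ± 0.16, which is 4.09-fold (limma adjusted p = 4.88e-09). After 4 h the signal was 9.82 and 9.88 in SB8, against 8.83 and 8.84 in SD8, and the arrays again did not overlap. The rise at 4 h was 1.01 ± 0.16, or 2.02-fold (limma adjusted p = 5.68e-05). The effect of benomyl on RPN4 was smaller at 4 h than at 1 h by -1.02 ± 0.22 (limma adjusted p = 0.00100 for the difference). Within the first scan day the effect at 1 h was 1.72, and within the second it was 2.34.

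In the cold neither difference of RPN4 from its controls passed the test. The signal was 9.35 and 9.24 in SC5, against 8.87 and 8.95 in SR5, and the cold arrays were both above the control arrays. The difference was 0.38 ± 0.16 (limma adjusted p = 0.0905), and it was called with the values as deposited (0.48, adjusted p = 0.0442) and with median centring (0.51, adjusted p = 0.0362). At 4 h the signal was 9.10 and 9.08 in SC8, against 8.93 and 8.95 in SR8, a difference of 0.15 ± 0.16 (limma adjusted p = 0.482). The effect of benomyl on RPN4 exceeded that of cold by 1.65 ± 0.22 at 1 h (limma adjusted p = 9.23e-06) and by 0.86 ± 0.22 at 4 h (limma adjusted p = 0.00700). With median centring the difference at 4 h was 0.60 (adjusted p = 0.0645). These 2 differences compare arrays of the first set with arrays of the second.

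The other groups set RPN4 in a narrower range. In acetate medium it stood at 10.05 and 10.06 in YPA, against 9.23 and 9.59 in YPD, and it rose by 0.65 ± 0.16 (limma adjusted p = 0.00394). The YPD arrays were scanned on another day than the YPA arrays, so medium and scan day cannot be told apart for this rise. Without replicate 1 of YPD the difference was 0.46 (adjusted p = 0.0694). In sporulation RPN4 fell: the signal was 9.08 and 9.24 in SP4, against 10.05 and 10.06 in YPA, a change of -0.90 ± 0.16 (limma adjusted p = 8.04e-05). It fell again during the hours in DMSO, to 8.83 and 8.84 in SD8, against 9.54 and 9.52 in SD5 (-0.70 ± 0.16, limma adjusted p = 0.00144). With the values as deposited this change was -0.42 (adjusted p = 0.0478). After filtration and 1 more hour, which cannot be told apart, the signal was 9.15 and 9.41 in SF5 against 9.08 and 9.24 in SP4 (0.12 ± 0.16, limma adjusted p = 0.908). With the solvent, SD5 stood above SF5 by 0.25 ± 0.16 (limma adjusted p = 0.782). Neither difference passed the test. The second set, with no stated addition in SR5 and SR8, had 9.07 and 8.99 in SR4. Neither SR5 against SR4 (-0.12 ± 0.16, limma adjusted p = 0.755) nor SR8 against SR5 (0.03 ± 0.16, limma adjusted p = 0.956) passed the test.

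By group mean, RPN4 ran from 11.56 in SB5 through 10.06 in YPA and 9.85 in SB8 to 8.84 in SD8. The arrays of SB5, YPA, SB8, SC8, SR4 and SR5 did not overlap those of the next group below them in this order. From SD5 down through YPD, SC5, SF5 and SP4 to SC8, neighbours overlapped, as did SR8 and SR5. The plot by array gives RPN4 in its upper panel and the mean centred levels of the core, base and lid genes in its lower panel.

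**Figure D1:**
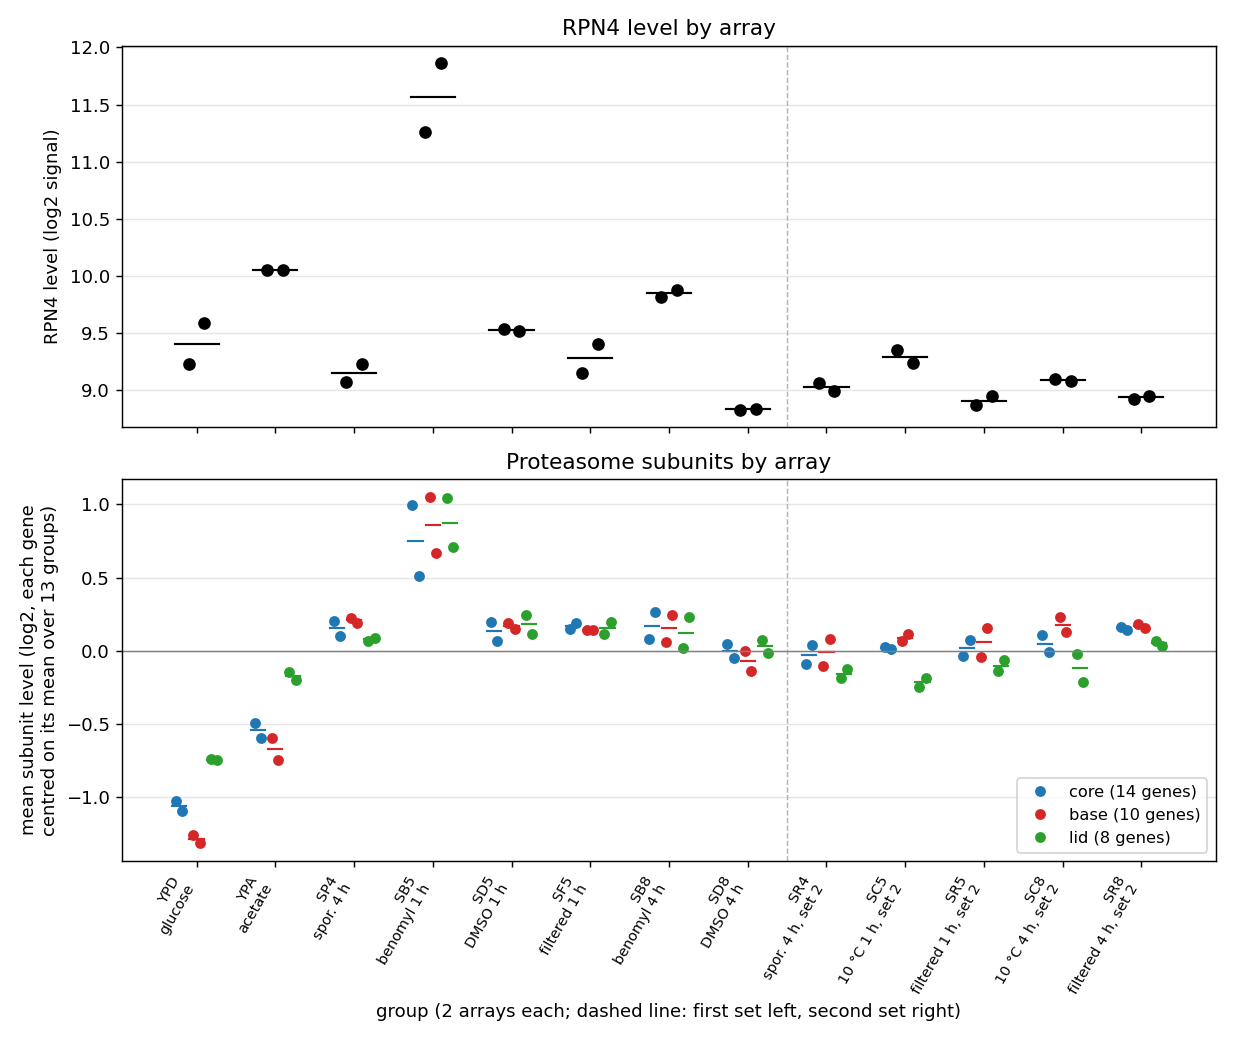
Log2 signal of RPN4 in each array (upper panel) and mean of the core, base and lid genes in each array after each gene was centred on its mean over the 13 groups (lower panel), with horizontal bars for group means and 2 arrays per group. RPN4 is highest in SB5 (11.26 and 11.86), and the class means are highest in SB5 and lowest in YPD.

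At 1 h of benomyl most subunits and RPN4 rose. Limma called 25 of the 32 higher (78.1%) and 0 lower, against 25.6% higher and 26.8% lower among all probe sets tested. The median log2 fold change was 0.74 over the subunits and 0.01 over all probe sets tested. The benomyl and DMSO arrays did not overlap for 26 of 32 subunits, with benomyl higher for 26 and lower for 0, against 36.8% higher and 34.4% lower among all probe sets tested. The size of the rise differed between the SB5 arrays. The mean of the 32 subunits, each centred on its mean over the groups, was 1.03 in replicate 1 of SB5 and 0.61 in replicate 2. In SD5 it was 0.21 and 0.11. A fit to the arrays of SB5 and SD5 alone called 4 subunits higher and 0 lower, against 6.5% higher and 8.84% lower among all probe sets in that fit. One that weighted arrays by their variability called 14 higher and 0 lower, against 11.4% higher and 14.3% lower. Its weights were the same for both arrays of a group (0.145 in SB5), so it weighted groups and discounted no single array of a pair. The fold changes are the same in both of these fits, and the standard errors differ. The median within the first scan day was 0.89 (32 of 32 subunits positive) and within the second 0.62 (27 of 32).

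In the core particle 10 of 14 genes rose at 1 h (median 0.72). PRE8, of the alpha ring, changed most, with 11.94 and 11.80 in SB5, against 11.02 and 10.69 in SD5. Its rise was 1.02 ± 0.13 (limma adjusted p = 2.30e-06). PRE5 (0.94 ± 0.20), SCL1 (0.83 ± 0.17), PUP2 (0.71 ± 0.21) and PRE9 (0.63 ± 0.15), the alpha subunit that yeast can live without, also rose. In the beta ring, which carries the proteolytic sites, PRE7 rose by 0.99 ± 0.14, PRE3, the caspase-like site, by 0.83 ± 0.15, PRE1 by 0.76 ± 0.13, PRE4 by 0.73 ± 0.13 and PUP3 by 0.44 ± 0.12. The other proteolytic subunits were not called: PRE2, the chymotrypsin-like site, differed by 0.18 ± 0.18 (limma adjusted p = 0.432) and PUP1, the trypsin-like site, by 0.26 ± 0.20 (limma adjusted p = 0.280). PRE6 (0.09 ± 0.23) and PRE10 (0.29 ± 0.18) of the alpha ring were not called either. For PRE2 the arrays read 12.15 and 11.63 in SB5, against 11.79 and 11.64 in SD5, so that replicate 1 was above both DMSO arrays and replicate 2 was below both.

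In the base, 8 of 10 genes rose (median 0.73). The ATPase gene RPT6 read 10.79 and 10.30 in SB5, against 9.60 and 9.51 in SD5, and the groups did not overlap. It rose by 0.99 ± 0.15 (limma adjusted p = 1.93e-05; 0.0555 in the fit to both groups alone). The ATPase genes RPT2 (0.93 ± 0.14), RPT3 (0.69 ± 0.15) and RPT5 (0.65 ± 0.17) rose, and RPT1 (0.19 ± 0.15, limma adjusted p = 0.302) and RPT4 (0.45 ± 0.28, limma adjusted p = 0.179) were not called. RPT5 is uncertain, because its probe set can match near-identical sequence. Of the scaffold genes, RPN1 rose by 0.91 ± 0.14 and RPN2 by 0.77 ± 0.13. Of the ubiquitin receptor genes, RPN10 rose by 0.87 ± 0.15 and RPN13 by 0.42 ± 0.17 (limma adjusted p = 0.0484), the least of the 25 that were called.

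In the lid, 7 of 8 genes rose (median 0.77). RPN12 showed the largest rise of all subunits in this comparison, with 10.68 and 10.29 in SB5, against 9.49 and 9.23 in SD5. The rise was 1.12 ± 0.15, which is 2.18-fold (limma adjusted p = 3.97e-06). RPN11, the deubiquitinase of the complex, rose by 0.87 ± 0.15, RPN3 by 0.83 ± 0.17, RPN8, the partner of Rpn11, by 0.79 ± 0.17, RPN5 by 0.75 ± 0.13, RPN6 by 0.59 ± 0.15 and RPN9 by 0.51 ± 0.15. RPN7 was not called (0.09 ± 0.14, limma adjusted p = 0.597), with 10.92 and 10.56 in SB5, against 10.62 and 10.68 in SD5. RPN14, which encodes an assembly chaperone of the base and is no subunit of the mature complex, went the other way. It read 7.64 and 7.28 in SB5, against 7.83 and 7.86 in SD5, and fell by 0.38 on the log2 scale (SE 0.13, limma adjusted p = 0.0203). That call was lost with array weights (adjusted p = 0.223), in the fit to both groups alone (adjusted p = 0.246) and without any single array other than replicate 1 of SB5.

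Markers of the meiotic program moved in the same comparison, where 25.6% of all probe sets were called higher and 26.8% lower. The early genes IME1, IME2, HOP1 and DMC1 fell (4 of 4, median -1.63). So did the middle genes NDT80, CLB1, SPS1 and SPR3 (4 of 4, median -1.51). Of the late genes DIT1 and DIT2, 1 rose and 0 fell (median 0.70). Both were dim, and in SD5 both lay below the filter level of log2 5.44. DIT1 read 5.97 and 6.72 in SB5, against 5.43 and 5.34 in SD5. DIT2 read 5.23 and 5.53 in SB5, against 4.83 and 5.07 in SD5. The part of these markers in the proteasome result was not tested.

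**Figure D2:**
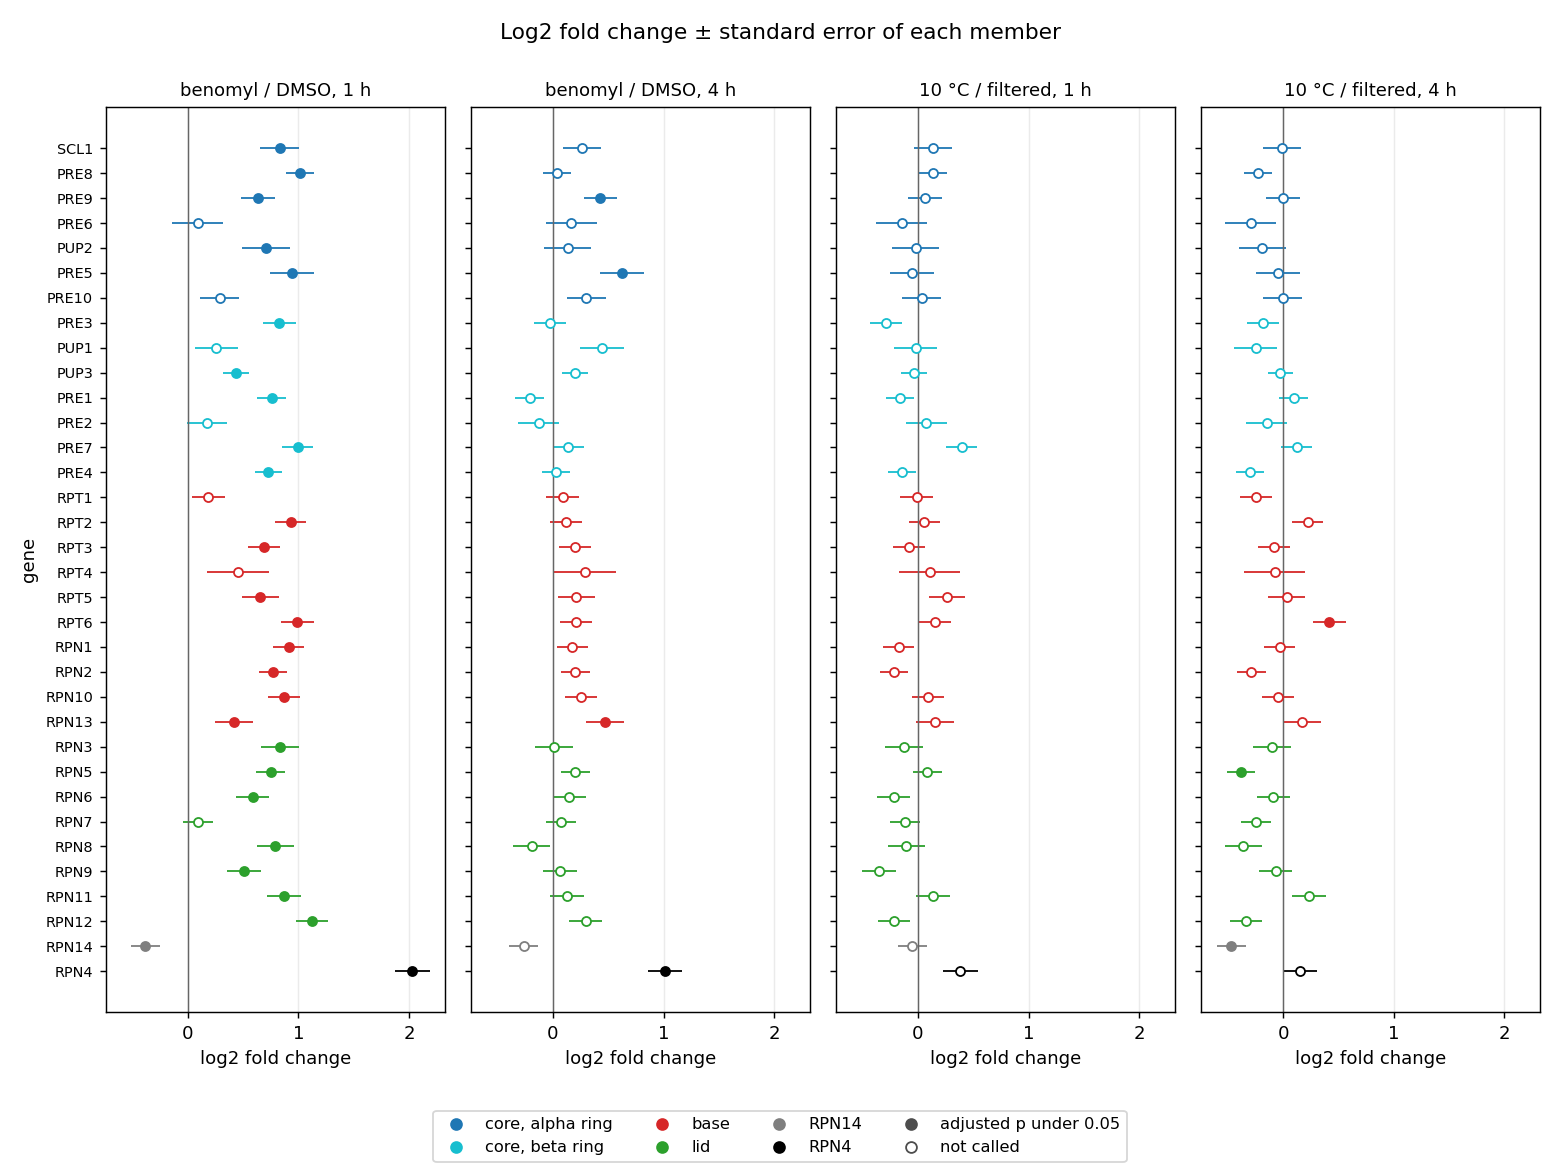
Log2 fold change ± standard error (horizontal axis) of each of the 34 members (rows) in the benomyl comparisons and the cold comparisons at 1 h and 4 h, with filled points for a limma adjusted p under 0.05. In the first panel 25 of 32 subunits and RPN4 (2.03) are filled to the right of 0, and in the third panel no point is filled.

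At 4 h of benomyl few subunits were called. Limma called 3 of 32 higher and 0 lower, against 16.6% higher and 15.9% lower among all probe sets tested. The median was 0.17, and 0.08 over all probe sets tested. PRE5 read 10.14 and 10.35 in SB8, against 9.66 and 9.57 in SD8, a rise of 0.63 ± 0.20 (limma adjusted p = 0.0204). RPN13 read 10.69 and 10.79 in SB8, against 10.34 and 10.19 in SD8 (0.47 ± 0.17, limma adjusted p = 0.0404). PRE9 also rose (0.43 ± 0.15, limma adjusted p = 0.0377), and these 3 genes did not overlap between the groups. Over the subunits, 15 of 32 had both benomyl arrays above both DMSO arrays and 1 had them below, against 45.7% above and 32.3% below among all probe sets tested. Median centring called 0 subunits, and leaving out 1 array called 0 to 2. RPN12, the lid gene with the largest difference, read 9.23 and 9.43 in SB8, against 9.02 and 9.05 in SD8, and 0.30 ± 0.15 did not pass the test (limma adjusted p = 0.135). With the values as deposited the median turned to -0.03 and 1 subunit was called, lower, against 10.8% higher and 18.8% lower among all probe sets in that fit. Within the first scan day 16 of 32 subunits were positive, and within the second 30 of 32, while RPN4 was 0.99 and 1.03. The middle genes of sporulation were lower here too (3 of 4 fell, median -1.13), and 2 of 2 late genes fell (median -1.42). Of the 4 early genes 1 rose and 1 fell (median 0.23). The part of these markers was not tested.

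For 15 of 32 subunits the effect of benomyl was smaller at 4 h than at 1 h, and for 17 the difference was not called. In the contrast of both effects 15 were lower at 4 h and 0 higher, against 21.5% lower and 24.2% higher among all probe sets tested, with medians of -0.56 and 0.00. The called genes were 5 of 14 in the core, 5 of 10 in the base and 5 of 8 in the lid. RPN8 differed most (-0.98 ± 0.24, limma adjusted p = 0.00245), followed by PRE8 (-0.98 ± 0.18, limma adjusted p = 2.20e-04) and PRE1 (-0.97 ± 0.18, limma adjusted p = 3.37e-04). The count was 24 without replicate 2 of SB5, 10 without replicate 1 of SB8 and 9 in a fit to these groups alone, where 20.3%, 17.2% and 16.6% of all probe sets were called lower. Within the first scan day the median was -0.84 (32 of 32 negative) and within the second -0.18 (20 of 32 negative).

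In the cold few subunits were called. At 1 h limma called 0 of 32, against 11.7% higher and 8.35% lower among all probe sets tested. At an unadjusted p under 0.05, 1 subunit was higher and 1 lower, with no share over all probe sets computed at that threshold. The median was -0.02, and -0.03 over all probe sets tested. PRE7 had the largest difference in the core, with 10.20 and 10.00 in SC5, against 9.71 and 9.70 in SR5. Its 0.40 ± 0.14 missed the threshold (limma adjusted p = 0.0538) and passed it with the values as deposited, with median centring and with the stricter filter. In the base RPT5 read 9.83 and 10.02 in SC5, against 9.56 and 9.76 in SR5 (0.26 ± 0.17, limma adjusted p = 0.290). In the lid RPN9 read 8.72 and 8.98 in SC5, against 9.04 and 9.37 in SR5 (-0.35 ± 0.15, limma adjusted p = 0.108), and the cold arrays were both below the control arrays.

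At 4 h in the cold 1 subunit rose and 1 fell, against 19.4% higher and 16.8% lower among all probe sets tested, with a median of -0.08 and 0.03 over all probe sets. RPT6 read 9.92 and 9.81 in SC8, against 9.36 and 9.54 in SR8, a rise of 0.42 ± 0.15 (limma adjusted p = 0.0337). RPN5 read 8.25 and 8.09 in SC8, against 8.53 and 8.57 in SR8, and fell by 0.38 on the log2 scale (SE 0.13, limma adjusted p = 0.0294). Neither gene overlapped between the groups, but leaving out an array of either group ended the call for RPT6 in 4 of 4 cases and for RPN5 in 3 of 4. In the core PRE4 differed most, with 11.15 and 11.10 in SC8, against 11.45 and 11.40 in SR8 (-0.30 ± 0.13, limma adjusted p = 0.0700). RPN14 fell, with 7.55 and 7.43 in SC8, against 8.01 and 7.90 in SR8 (-0.47 ± 0.13, limma adjusted p = 0.00878), but the call was lost without replicate 1 of SR8 (adjusted p = 0.0751) or replicate 2 of SC8 (adjusted p = 0.0796). A fit to SC8 and SR8 alone called 10 subunits, 1 higher and 9 lower, against 26.6% higher and 24.2% lower among all probe sets in that fit. Array weights called 8, 1 higher and 7 lower, against 28.3% higher and 25.2% lower. All 4 middle genes of sporulation fell in this comparison (median -3.30). Of the 4 early genes 3 fell and 0 rose (median -0.79), and 0 of 2 late genes were called (median -0.35). The part of these markers was not tested.

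The change of the cold effect between 1 h and 4 h was called for 0 of 32 subunits, against 2.83% higher and 5% lower among all probe sets tested. At an unadjusted p under 0.05, for which no share over all probe sets was computed, 0 were higher and 1 lower. At 1 h the effect of benomyl exceeded that of cold for 22 of 32 subunits, with 0 the other way, against 20.4% higher and 21.8% lower among all probe sets tested. The median difference was 0.75, and 0.01 over all probe sets. RPN12 differed most, by 1.34 ± 0.21 (limma adjusted p = 4.37e-05). At 4 h the difference was called for 2 of 32, RPN12 (0.63 ± 0.21) and RPN5 (0.58 ± 0.18), against 13.4% higher and 13.4% lower among all probe sets tested. The count at 1 h was 14 with the values as deposited, 5 with array weights and 7 in a fit to these groups alone, where 16.9%, 9.03% and 7.24% of all probe sets were called higher.

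**Figure D3:**
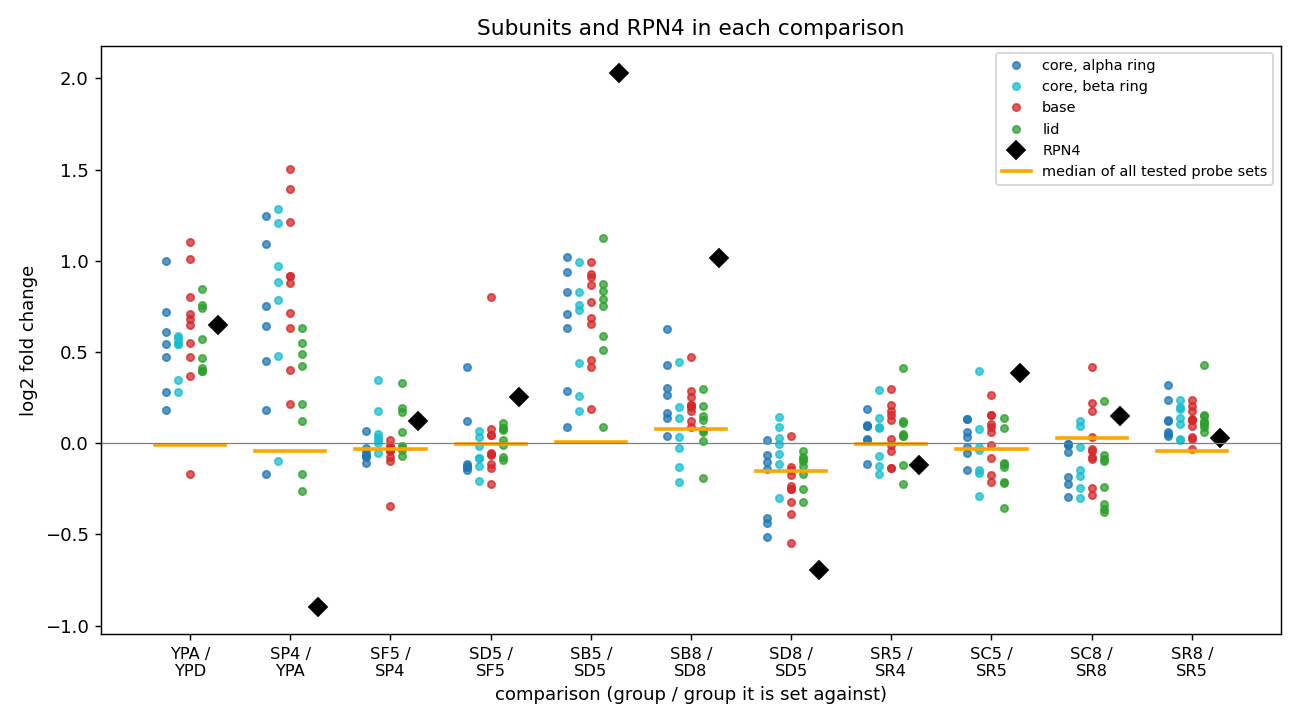
Log2 fold change (vertical axis) of the 32 subunits by class and of RPN4 in 11 comparisons, with a bar for the median of all tested probe sets. Most subunits lie above that bar in YPA / YPD (median 0.55), SP4 / YPA (median 0.64) and SB5 / SD5 (median 0.74), while RPN4 lies below 0 in SP4 / YPA (-0.90) and SD8 / SD5 (-0.70).

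The largest steps of the subunits outside benomyl, by median, were those of YPA over YPD and SP4 over YPA. In acetate medium 23 of 32 rose over glucose medium and 0 fell, against 15.7% higher and 17.7% lower among all probe sets tested, with medians of 0.55 and -0.01. No other group of the first set was scanned on the day of the YPD arrays, so medium and scan day cannot be told apart. RPN1, a scaffold of the base that binds ubiquitin shuttles, differed most, with 8.34 and 8.34 in YPA, against 7.21 and 7.26 in YPD (1.10 ± 0.14, limma adjusted p = 1.16e-05). The called genes were 9 of 14 in the core, 7 of 10 in the base and 7 of 8 in the lid. RPT3 (1.01 ± 0.15), PRE9 (1.00 ± 0.15) and RPN11 (0.85 ± 0.15) were among them. RPN13 was the only subunit with a negative value (-0.17 ± 0.17, limma adjusted p = 0.489). Leaving out an array gave 15 to 17 called subunits, the fewest without replicate 1 of YPD.

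In sporulation most subunits rose while RPN4 fell. Limma called 24 of 32 higher in SP4 than in YPA and 0 lower, against 28.5% higher and 29.5% lower among all probe sets tested, with medians of 0.64 and -0.04. The base had 9 of 10 genes called (median 0.90), the core 11 of 14 (median 0.77) and the lid 4 of 8 (median 0.32), and the difference between these classes was not tested. RPN10, a ubiquitin receptor, differed most, with 7.86 and 7.91 in SP4, against 6.47 and 6.30 in YPA. It rose by 1.5 ± 0.15, which is 2.83-fold (limma adjusted p = 8.77e-08). The ATPase gene RPT1 (1.39 ± 0.15), the proteolytic subunits PUP1 (1.29 ± 0.20) and PRE2 (1.21 ± 0.18), PRE8 (1.24 ± 0.13) and RPT5 (1.21 ± 0.17) rose too. Genes with values near or below 0 were PRE9 (-0.17 ± 0.15), PRE7 (-0.10 ± 0.14), RPN5 (-0.17 ± 0.13), RPN8 (-0.26 ± 0.17) and RPN12 (0.12 ± 0.15), and none of them was called. With median centring the count was 14 higher and 1 lower, against 25.2% higher and 35.7% lower among all probe sets in that fit. RPN14 rose in YPA over YPD (0.66 ± 0.13, limma adjusted p = 9.07e-04) and fell in SP4 against YPA (-0.60 ± 0.13, limma adjusted p = 7.55e-04). For its rise in YPA, medium and scan day cannot be told apart. Comparisons that share YPA, or any other group, share its arrays.

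Few subunits were called in the comparisons of filtration, solvent and the hours of sporulation with no stated drug. SF5 differs from SP4, and SR5 from SR4, by filtration and 1 more hour, which cannot be told apart. In SF5 over SP4 limma called 0 of 32, against 2.16% higher and 0.927% lower among all probe sets tested. At an unadjusted p under 0.05, for which no share over all probe sets was computed, 0 subunits passed. The largest difference was that of PUP1, with 11.39 and 11.21 in SF5, against 11.36 and 10.55 in SP4 (0.35 ± 0.20, limma adjusted p = 0.550), and it rested on the lower SP4 array. Without that array it was -0.06, and without the other SP4 array 0.75. In this comparison 3 of 4 middle genes of sporulation rose (median 2.11), and their part was not tested. In SD5 over SF5 limma called 0 of 32, against 0.356% higher and 0.216% lower. At an unadjusted p under 0.05, again without a matching share, 1 subunit passed. RPT4 differed most, with 9.03 and 8.94 in SD5, against 8.06 and 8.30 in SF5. Its 0.80 ± 0.28 did not pass the test (limma adjusted p = 0.320) and did so in a fit to these groups alone.

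Between 1 h and 4 h in DMSO 2 of 32 subunits fell and 0 rose, against 25.8% lower and 17.8% higher among all probe sets tested. Both belong to the alpha ring. PRE5 read 9.66 and 9.57 in SD8, against 10.26 and 10.00 in SD5 (-0.51 ± 0.20, limma adjusted p = 0.0435), and PRE9 read 8.88 and 8.83 in SD8, against 9.28 and 9.26 in SD5 (-0.41 ± 0.15, limma adjusted p = 0.0362). RPT4 had the largest difference, with 8.62 and 8.26 in SD8, against 9.03 and 8.94 in SD5 (-0.55 ± 0.28, limma adjusted p = 0.120). Leaving out any array of either group gave 0 called subunits, array weights gave 7, all lower, where 36.2% of all probe sets were lower, and the median of -0.13 stood beside -0.15 over all probe sets. All 4 middle genes of sporulation rose in this comparison (median 2.67), and their part was not tested.

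In the second set, SR5 against SR4 had 0 of 32 called, against 0.686% higher and 1.69% lower among all probe sets tested. At an unadjusted p under 0.05, for which no share over all probe sets was computed, 1 subunit passed. RPN9 differed most, with 9.04 and 9.37 in SR5, against 8.86 and 8.71 in SR4 (0.41 ± 0.15, limma adjusted p = 0.171). Of the 4 middle genes of sporulation 1 rose and 0 fell (median 0.62), and their part was not tested. SR8 against SR5 also had 0 of 32 called, against 5.47% higher and 2.63% lower. At an unadjusted p under 0.05, again without a matching share, 1 subunit passed. There RPN8 read 8.55 and 8.36 in SR8, against 8.05 and 8.01 in SR5 (0.43 ± 0.17, limma adjusted p = 0.132), and 31 of 32 subunits had positive values (median 0.12), against 3393 of 7876 probe sets (median -0.04). All 4 middle genes of sporulation rose in this comparison (median 3.42), and their part was not tested.

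The cells of both sets with no stated treatment, taken 1 h after filtration, were compared as well. The labels do not state whether SR5 had DMSO, so set and solvent may both differ here. In SR5 against SF5, 3 of 32 subunits fell and 0 rose, against 11.7% lower and 10.8% higher among all probe sets tested. RPN8 read 8.05 and 8.01 in SR5, against 8.50 and 8.80 in SF5 (-0.62 ± 0.17, limma adjusted p = 0.0139), and PRE8 (-0.49 ± 0.13) and RPN7 (-0.40 ± 0.14) fell too. RPN4 differed by -0.37 ± 0.16 (limma adjusted p = 0.0959), and by -0.63 with the values as deposited (adjusted p = 0.00841). The count was 11, all lower, with the values as deposited, where 22.1% of all probe sets were lower and 6.52% higher, and 0 with array weights. The call for RPN8 was lost with array weights (adjusted p = 0.0889). All 4 middle genes of sporulation were lower in SR5 than in SF5 (median -2.19), and their part was not tested.

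Over the 13 groups the subunit mean stood apart in SB5, YPA and YPD. After each gene was centred on its mean over the groups, the mean of the 32 was 1.03 and 0.61 in the arrays of SB5, and -0.49 in YPA and -1.05 in YPD by group mean. The other 10 groups lay between -0.05 and 0.16. SB5 was the highest group for 31 of 32 subunits and YPD, scanned apart from the rest of the first set, the lowest for 30. The same count was not made for other probe sets. The exceptions at the top and bottom were PRE6, highest in SB8, RPN13, lowest in SD8, and RPN5, lowest in SC8. The correlation of a subunit with the mean of the other 31 ran from 0.634 for RPN5 to 0.982 for RPT2 (median 0.899, over 13 group means that share arrays and normalization). These correlations include SB5, YPA and YPD and were not computed without them.

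The subunits differed in how far they moved. The range of group means was widest for RPN10, at 2.94, with 5.68 in YPD, 6.38 in YPA, 7.88 in SP4 and 8.62 in SB5. It was narrowest for RPN13, at 0.80, with 11.07 in SB5 and 10.27 in SD8. The ranges ran from 1.24 to 2.33 in the alpha ring, from 1.33 to 2.38 in the beta ring and from 1.08 to 2.26 in the lid. PRE6 read 11.88 in SB5 and 11.79 in SD5, and by group mean it lay between 11.37 and 11.89 in all groups other than YPA (10.64) and YPD (10.16).

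RPN4 and the subunit mean did not keep 1 order over the groups. Their correlation was 0.386 over the 13 group means, -0.297 over the 12 groups other than SB5, and 0.558 over the 10 groups left without SB5, YPA and YPD. These are descriptions of points that share arrays and normalization. YPA combined the second highest RPN4 level (10.06) with the second lowest subunit mean (-0.49). Single subunits correlated with RPN4 from -0.03 for PUP3 to 0.852 for RPN5 (median 0.379), with 0.851 for PRE7, 0.793 for RPN12 and 0.776 for PRE9. These single values include SB5, the group with the highest RPN4 level, and were not computed without it.

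**Figure D4:**
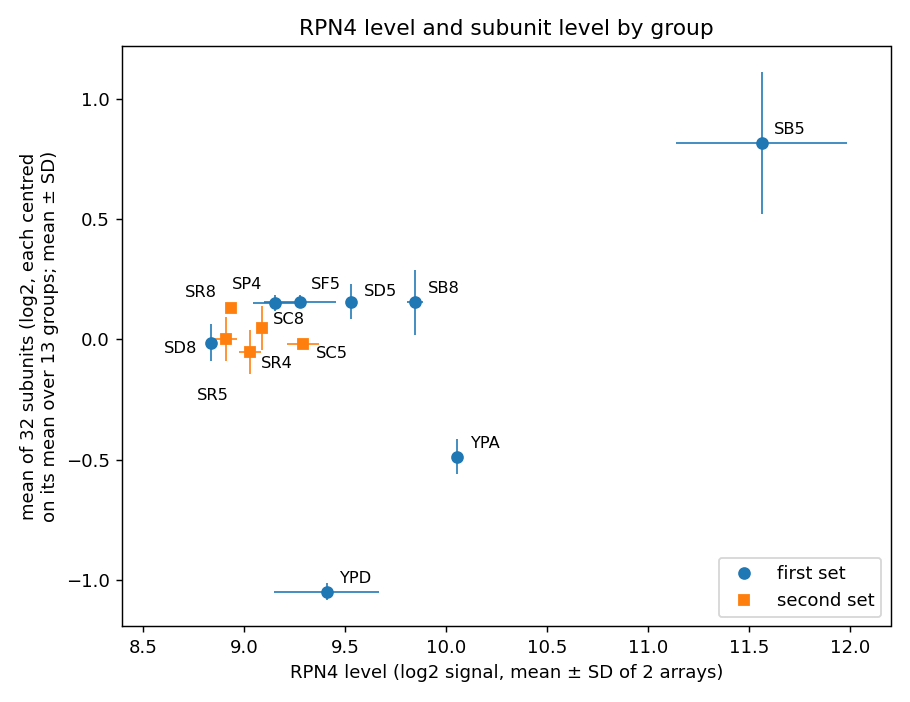
Mean centred level of the 32 subunits (vertical axis, log2) against the RPN4 level (horizontal axis, log2 signal) for the 13 groups, with bars of 1 SD over 2 arrays. SB5 lies at the upper right (11.56 and 0.82), YPA (10.06 and -0.49) and YPD (9.41 and -1.05) lie low, and the other 10 groups lie between -0.05 and 0.16 on the vertical axis.

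Of 5430 other genes, those with the profile most like RPN4 over the 13 group means were YML131W (r = 0.960), YDL124W (0.953), VMA21 (0.948), YLR046C (0.928) and TSA2 (0.923). Those most like the subunit mean were CDC48 (0.977), NRD1 (0.958), SOH1 (0.950), KAR4 (0.949) and YKL107W (0.947). Both lists are the top of a ranking over 13 points that share arrays and normalization. RPN4 stood highest in SB5, and the subunit mean stood apart in SB5, YPA and YPD. The rankings were not repeated without these groups, and shared regulation was not tested.

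Genes of proteasome assembly were followed as well, and their counts were not tested against the shares over all probe sets. Of 16 assembly and associated factors, 6 rose and 3 fell after 1 h of benomyl, against 25.6% and 26.8% of all probe sets tested. PBA1, a chaperone of alpha ring assembly, read 10.24 and 9.99 in SB5, against 8.0 and 8.15 in SD5, and its rise of 2.04 ± 0.17 passed the test (limma adjusted p = 1.08e-08). NAS6, a base chaperone (0.99 ± 0.14), SEM1, a small lid protein (0.95 ± 0.17), and UMP1, the core maturation factor (0.61 ± 0.15), rose as well. IRC25 (-0.72 ± 0.11) and POC4 (-0.45 ± 0.10), which act together in alpha ring assembly, fell. After 4 h of benomyl 5 rose and 3 fell, against 16.6% and 15.9% of all probe sets, among them NAS6 (0.55 ± 0.14), CIC1 (-0.80 ± 0.16) and ADD66, the partner of Pba1 (-0.68 ± 0.14). In the cold 1 rose and 3 fell at 1 h, against 11.7% and 8.35% of all probe sets, and 2 rose and 2 fell at 4 h, against 19.4% and 16.8%. CIC1, a nuclear protein with a role in ribosome assembly, rose at both times (2.00 ± 0.16 and 1.80 ± 0.16), and IRC25 fell at both (-0.50 ± 0.11 and -0.57 ± 0.11).

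Of 20 ubiquitin, shuttle and Cdc48 genes, 11 rose and 3 fell after 1 h of benomyl (median 0.50), where 25.6% of all probe sets rose and 26.8% fell. DDI1, a shuttle protein, read 9.89 and 9.83 in SB5, against 8.29 and 8.18 in SD5 (1.63 ± 0.12, limma adjusted p = 2.15e-09). The Cdc48 cofactor gene SHP1 (1.06 ± 0.15) and the shuttle gene DSK2 (0.88 ± 0.11) rose too. At 4 h of benomyl 4 rose and 1 fell, where 16.6% and 15.9% of all probe sets did so, with DSK2 at 0.55 ± 0.11 and SHP1 at 0.63 ± 0.15. In the cold 1 rose and 2 fell at 1 h (11.7% and 8.35% of all probe sets), and 4 rose and 2 fell at 4 h (19.4% and 16.8%). RAD6, a ubiquitin conjugating enzyme, rose at both times (0.61 ± 0.14 and 0.86 ± 0.14), and UBC5, another, fell at both (-0.32 ± 0.10 and -0.70 ± 0.10).

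Among 6 factors known to act on RPN4 or on its protein, 4 rose and 1 fell after 1 h of benomyl. Over all probe sets tested the shares that rose and fell were 25.6% and 26.8% after 1 h of benomyl, 16.6% and 15.9% after 4 h, 11.7% and 8.35% after 1 h of cold, and 19.4% and 16.8% after 4 h. YAP1 read 10.06 and 10.26 in SB5, against 8.63 and 8.34 in SD5 (1.68 ± 0.15, limma adjusted p = 4.88e-08). PDR1 (1.18 ± 0.17), HSF1 (0.55 ± 0.20) and MUB1 (0.78 ± 0.16), the partner of the ubiquitin ligase Ubr2 that targets Rpn4, rose, and UBR2 fell (-0.87 ± 0.23). After 4 h of benomyl PDR1 (0.77 ± 0.17), MUB1 (0.56 ± 0.16) and PDR3 (0.43 ± 0.14) rose and none fell. In the cold 3 fell at 1 h, namely PDR3 (-0.62 ± 0.14), UBR2 (-0.87 ± 0.23) and PDR1 (-0.55 ± 0.17), and at 4 h YAP1 rose (0.74 ± 0.15) while UBR2 fell (-0.90 ± 0.23). The 6 targets of Yap1 and Pdr factors followed for context, FLR1, OYE3, GRE2, PDR5, SNQ2 and TRX2, rose in 6 of 6 cases after 1 h of benomyl (median 4.08) and in 6 of 6 after 4 h (median 1.71), and 1 and 2 of them rose in the cold at 1 h and 4 h.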

How the data were processed

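In the table that the authors deposited, each of 26 arrays has a processed log2 signal for 9335 probe sets. The method that made them is not given in the sources used here, and the log base was inferred from the values (2.09 to 15.1). Per the file headers, text files for 16 arrays hold fluidics and scanner settings of another kind and no expression values, and they gave the scan day. Replicate 1 of 7 groups of the first set was scanned on 1 day, replicate 2 on another and both YPD arrays on yet another. No scan day was at hand for the second set.

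Groups came from the sample labels. Values were quantile normalized, 60 control probe sets were left out, and a probe set was kept where at least 1 group mean was above log2 5.44 (percentile 25 of all values), which removed 1399. Gene names came from the supplied platform annotation, updated by the supplied gene table. With limma 3.58.1 under R 4.3.3, a linear model (intensity trend in the variance, 13 residual degrees of freedom) with a mean for each group was fitted to all arrays. P-values were Benjamini-Hochberg adjusted over 7876 probe sets and called under 0.05. Contrasts of contrasts tested differences between effects. The number of arrays limits precision, and an exact permutation test for 1 gene with 2 arrays a group cannot go below p = 0.333, so none is given. The fit was tested on simulated data.

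All members may be named. Array values are given for RPN4 in all groups and for the subunit with the largest difference in the core, base and lid in the benomyl and cold comparisons (1 subunit in the others), and for any called against the majority. Values of other members were added where the text turns on them. The 5 most correlated genes and up to 3 genes of each pathway list with the smallest adjusted p were named, and a few others were chosen after their values were seen. The members and lists were chosen with earlier results of these data known. The labels do not say that a replicate number marks a shared culture. It matches the scan day in 7 groups, and scan day was used as a block and to split the arrays. Deviations of same-numbered arrays correlated at -0.155 to 0.309 between groups of the first set and -0.289 to 0.391 in the second, so the fit has no replicate block. No sequence of these genes is given, and promoter motifs were not analysed here.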

Additional observations from a re-analysis of the deposited data

Results flagged for a closer look

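The effect of benomyl on RPN4 differed between the times, by -1.02 ± 0.22 at 4 h against 1 h (limma adjusted p = 0.00100), and 15 of 32 subunits had a smaller effect at 4 h, against 21.5% lower among all probe sets tested. The effect of benomyl on RPN4 also exceeded that of cold, by 1.65 ± 0.22 at 1 h (limma adjusted p = 9.23e-06), where 22 of 32 subunits differed the same way, against 20.4% of all probe sets. At 4 h it exceeded that of cold by 0.86 ± 0.22 (limma adjusted p = 0.00700), where 2 of 32 subunits differed the same way, against 13.4% of all probe sets. With median centring this last difference of RPN4 was 0.60 and was not called (adjusted p = 0.0645). Outlying arrays were not looked for within groups, since each holds 2 arrays.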

How the results depend on the processing

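With the replicate block 25 subunits were called higher at 1 h of benomyl and RPN4 rose by 2.03. RPN4 and the other named members kept their call and direction in 38 of 38 results with the replicate block, 38 of 38 without the filter, 38 of 38 without the variance trend and 18 of 18 with scan day as a block, which could not be run for YPA against YPD or the second set. The count of called subunits was identical in 15 of 16 comparisons under each of the first 3 settings and in 6 of 7 with scan day. The exceptions differed by 1 subunit: 22 for YPA against YPD with the replicate block, 24 at 1 h of benomyl without the filter and without the variance trend, and 3 for SD8 against SD5 with scan day. RPN4 kept its direction and call at 1 h of benomyl in all alternatives run that give a test, and it was 1.72 and 2.34 within scan days, and the difference between its effects at 4 h and 1 h was -0.73 and -1.30 within scan days.

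Counts of called subunits moved by over 1.5 times under other settings, and the cause was not tested. Percentages in brackets give the share of all probe sets called the same way in that fit. Both shares are given where the count was 0. With the values as deposited the count was 0 for SD8 against SD5 (21.7% higher, 15.3% lower) and 1 lower for SB8 against SD8 (18.8%). It was 1 higher for SC5 against SR5 (11.6%) and 11 lower for SR5 against SF5 (22.1%). For benomyl against cold it was 14 higher at 1 h (16.9%) and 0 at 4 h (11.9% higher, 13.2% lower). RPN4 was then called in SC5 against SR5 (0.48) and SR5 against SF5 (-0.63), and was -0.42 in SD8 against SD5. With median centring the count was 14 higher and 1 lower for SP4 against YPA (25.2% and 35.7%). It was 0 for SD8 against SD5 (19.2% higher, 24.1% lower) and 0 for SB8 against SD8 (14.1% higher, 17.6% lower). It was 1 higher for SC5 against SR5 (12.8%) and 1 lower for benomyl against cold at 4 h (15.6%), where RPN4 was 0.60 and not called. RPN4 in SC5 against SR5 was 0.51. These scalings shifted the median of all probe sets by -0.17 to 0.12. The stricter filter gave 1 higher for SC5 against SR5 (12.9%). Array weights gave 7 lower for SD8 against SD5 (36.2%), 14 higher for SB5 against SD5 (11.4%) and 6 higher for SB8 against SD8 (30.2%). For SC8 against SR8 they gave 1 higher and 7 lower (28.3% and 25.2%), and for SR5 against SF5 0 (4.41% higher, 4.62% lower). For benomyl against cold they gave 5 higher at 1 h (9.03%) and 8 higher at 4 h (23.3%). Fits to only the groups compared gave 1 higher for SD5 against SF5 (0.584%), 5 lower for SD8 against SD5 (35.5%) and 4 higher for SB5 against SD5 (6.5%). For SC8 against SR8 they gave 1 higher and 9 lower (26.6% and 24.2%), and for SR5 against SF5 0 (1.21% higher, 2.34% lower). They gave 9 lower for benomyl at 4 h against 1 h (16.6%). For benomyl against cold they gave 7 higher at 1 h (7.24%) and 7 higher at 4 h (22.4%). Fewer arrays enter these fits.

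Leaving out each array in turn gave 15 to 17 called subunits for YPA against YPD, 0 to 1 for SF5 against SP4, 0 for SD8 against SD5, 0 to 2 for SB8 against SD8, 0 to 1 for SR8 against SR5, 0 to 1 for SC8 against SR8 and 0 to 5 for SR5 against SF5. It gave 10 to 24 for benomyl at 4 h against 1 h and 0 to 2 for benomyl against cold at 4 h. RPN4 ran from 0.46 to 0.83 for YPA against YPD, and small values changed sign for RPN4 in SF5 against SP4 (-0.0017 to 0.25) and SR8 against SR5 (-0.012 to 0.067) and for PUP1 in SF5 against SP4 (-0.055 to 0.75). A lone array was assumed to vary like the other groups, and the counts rest on that assumption. The shares of all probe sets called also changed between these fits.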

Other observations

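PRE3 and RPT5 had further probe sets that passed the filter. For PRE3, whose value in the text is 0.83 after 1 h of benomyl, these gave 0.53 and 0.62, and both were called higher. After 4 h of benomyl they gave -0.47 and -0.42 against -0.03 for the probe set in the text, and none of the 3 was called (limma adjusted p = 0.0668, 0.150 and 0.915). In SR5 against SF5 both were lower (-0.61 and -0.76, limma adjusted p = 0.0286 and 0.0168), while the probe set in the text was not called (-0.20, limma adjusted p = 0.350). For RPT5 the other probe sets gave 0.62 and 0.70 after 1 h of benomyl, against 0.65 for the one in the text, and all 3 were called higher.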
